A study of Mus musculus with 12 samples.

Results

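The 9 genes described here belong to the DNA methylation machinery and were followed across control, DAC, SFN and DAC+SFN treated B16F10 cells. The genes were Dnmt1, Dnmt3a, Dnmt3b, Uhrf1, Uhrf2, Tet1, Tet2, Tet3 and Mbd2, chosen by name, and they are 9 of the 24421 genes counted in each library. All 9 passed the filter on low counts. B16F10 is a mouse melanoma cell line, and each of the 4 groups had 3 independent repeats of culture, sequenced as poly(A)-selected RNA. Control cells received DMSO vehicle (0.025% by the labels), and DAC cells received 5-aza-2'-deoxycytidine at 25 nM for 72 h. SFN cells received sulforaphane for the last 48 h, and DAC+SFN cells received DAC at 25 nM for 72 h with SFN at 5 µM for the last 48 h. The labels give the SFN dose as 5 nM for SFN alone, whereas the methods of the study give the same 5 µM for both SFN groups, so by the labels the SFN dose also differs between SFN and DAC+SFN. All groups share 1 cell line, and the RNA of a well is a bulk sample.

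DNMT1 copies CpG methylation onto newly made DNA strands, and UHRF1, which reads hemimethylated CpG, brings it there. UHRF2 is the close relative of UHRF1. DNMT3A and DNMT3B are the de novo methyltransferases. TET1, TET2 and TET3 oxidise 5-methylcytosine, using 2-oxoglutarate, and so start its removal. MBD2 binds methylated CpG and recruits the NuRD repressor complex. DAC is built into DNA during replication and traps DNMT proteins there, and SFN is a plant isothiocyanate. Counts of RNA do not measure that trapping or the amount of protein.

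Each of the members lies on a chromosome of its own in mm10 (GENCODE M21), and counts cover the exons of each gene as a whole. The maintenance genes are Dnmt1 (chromosome 9, 20907209 to 20959888, minus strand) and Uhrf1 (chromosome 17, 56303321 to 56323486, plus strand). Uhrf2, the relative of Uhrf1, is on chromosome 19 (30030513 to 30093722, plus strand). The de novo genes are Dnmt3a (chromosome 12, 3806007 to 3914443, plus strand) and Dnmt3b (chromosome 2, 153649450 to 153687730, plus strand). Tet1 is on chromosome 10 (62804570 to 62908996, minus strand), Tet2 on chromosome 3 (133463679 to 133545139, minus strand) and Tet3 on chromosome 6 (83362373 to 83459084, minus strand). An antisense transcript, Dnmt3aos, shares 133 exon bases (0.8%) with Dnmt3a, and Gm42567 shares 43 exon bases (0.25%) with Tet2, and since the strand setting of the counting is not given in the sources used here, reads in those bases cannot be assigned to a strand. Dnmt3a and Dnmt3b also have near copies in the mouse genome (a processed pseudogene of Dnmt3a, and Dnmt3c beside Dnmt3b). Only reads with a single place in the genome were counted, so their counts are uncertain to the extent that reads are shared.

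Promoter sequence was examined because Uhrf1 and Dnmt1 moved with genes of DNA replication in these libraries, as given further on. Windows from 250 bases before to 50 bases after each start site were read from RefSeq (GRCm38.p6), where 8 of the 9 genes matched, with 13 windows in all. They were searched on both strands for TTTNNCGC, where N is any base, a loose pattern taken here as the core of the E2F motif. It reads GCGNNAAA on the opposite strand. Of 32841 windows of this length, 5.17% hold it. That share is per window and not per gene, and it was not matched for CpG content. Enrichment was thus not tested. A match was found for Dnmt1 (3 matches in 1 of its 3 windows, of which 2 overlap each other) and for Uhrf1 (1 match in each of its 2 windows), and none was found in the windows of Dnmt3a, Dnmt3b, Uhrf2, Tet1, Tet2 or Tet3. The motif was chosen with the values of these genes known, and a match is a run of letters and not a measured site. The 4 windows below show a maintenance pair that holds the motif and a de novo gene and a TET gene whose windows do not. They are written 5′ to 3′ on the strand of the gene, with each E2F core match in capitals. Uhrf1 is chr17:56304063-56304362 on the plus strand, Dnmt1 chr9:20952574-20952873 on the minus strand, Dnmt3b chr2:153649199-153649498 on the plus strand and Tet3 chr6:83441629-83441928 on the minus strand.
Uhrf1: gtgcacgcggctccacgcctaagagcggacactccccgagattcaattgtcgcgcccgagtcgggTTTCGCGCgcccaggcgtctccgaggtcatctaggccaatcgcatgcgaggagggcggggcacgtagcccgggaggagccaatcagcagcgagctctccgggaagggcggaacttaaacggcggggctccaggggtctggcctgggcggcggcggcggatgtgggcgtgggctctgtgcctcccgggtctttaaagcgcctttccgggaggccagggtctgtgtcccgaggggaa
Dnmt1: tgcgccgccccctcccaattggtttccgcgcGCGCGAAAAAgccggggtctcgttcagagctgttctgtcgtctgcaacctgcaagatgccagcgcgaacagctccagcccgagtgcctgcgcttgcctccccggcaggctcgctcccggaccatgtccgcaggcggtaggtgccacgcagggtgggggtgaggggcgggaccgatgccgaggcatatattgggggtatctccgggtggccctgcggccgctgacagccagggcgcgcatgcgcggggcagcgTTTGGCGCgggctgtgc
Dnmt3b: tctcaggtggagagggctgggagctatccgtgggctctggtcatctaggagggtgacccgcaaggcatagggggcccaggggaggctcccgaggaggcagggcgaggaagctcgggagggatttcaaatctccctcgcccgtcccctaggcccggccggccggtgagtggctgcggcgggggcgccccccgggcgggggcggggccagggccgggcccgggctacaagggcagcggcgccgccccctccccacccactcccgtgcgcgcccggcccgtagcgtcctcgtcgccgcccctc
Tet3: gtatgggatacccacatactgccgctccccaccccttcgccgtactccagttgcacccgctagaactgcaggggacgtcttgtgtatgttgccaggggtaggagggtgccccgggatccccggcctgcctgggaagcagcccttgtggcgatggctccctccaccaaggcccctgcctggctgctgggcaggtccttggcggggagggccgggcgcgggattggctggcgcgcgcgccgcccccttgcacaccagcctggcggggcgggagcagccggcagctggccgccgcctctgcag

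In these windows the Uhrf1 match, TTTCGCGC, begins 185 bases before the start site. The overlapping Dnmt1 matches begin 219 and 217 bases before it, and the remaining Dnmt1 match, TTTGGCGC, begins 33 bases after it. The windows shown for Uhrf1 and Dnmt1 hold 33 CpG each. That of Dnmt3b holds 30 and that of Tet3 holds 22, against a median of 7 over all windows. For Uhrf1 and Dnmt1 the window shown is the richest in CpG of its gene, and that choice raises their values. The other Uhrf1 window holds 12 CpG, and the other Dnmt1 windows hold 2 and 12.

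The libraries held between 15880957 and 27291436 counted reads. All 8 melanocyte lineage markers (Mitf, Sox10, Tyr, Tyrp1, Dct, Pmel, Mlana and Slc45a2) were measured, with summed levels between 22400 and 31200 CPM (counts scaled to a common library size by TMM, per 1e+06) in every group. With DAC+SFN against control, 2 of the 8 were lower and 1 higher at an adjusted p under 0.05 in edgeR. The log2 fold changes of the 8 ran from -0.36 to 0.178, and 0 of the 8 passed with DAC or SFN alone. Markers of leukocytes (Ptprc and Cd3e), endothelial cells (Pecam1 and Cdh5), keratinocytes (Krt5 and Krt14) and 1 of 3 fibroblast markers (Dcn) were at or near 0, with at most 11 counts in a library for Pecam1, at most 2 for the others and none for Cdh5. The other 2 fibroblast markers were measured. Col1a1 followed the replicate number, at 61.5 to 90.3 CPM in replicate 1, 15.6 to 24.1 in replicate 2 and 245 to 356 in replicate 3, and its groups overlapped. Pdgfra was between 2.28 and 2.99 CPM in control and between 1.22 and 2.25 CPM in the treated groups. The summed fibroblast markers thus ranged from 17.9 to 314 CPM in control, 19.8 to 359 with DAC, 18.1 to 247 with SFN and 25.7 to 247 with DAC+SFN. Among 3 leukocyte markers Cd68 alone was tested, and the sum of the list went with it. That sum was between 2.36 and 4.78 CPM in control and between 3.93 and 5.68 with DAC. It was between 6.16 and 8.99 with SFN and between 8.31 and 11.2 with DAC+SFN. Against control, Cd68 passed edgeR's test at an adjusted p under 0.05 with SFN (log2 fold change 1.11) and DAC+SFN (1.55). It did not with DAC (0.602). The part of these markers in the results below was not tested. No pair of replicates was a copy, since chi-square per gene between replicates was 13.6 or more where sampling alone gives about 1.

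Levels per length of exon spread widely among the 9 genes. In control, Uhrf1 had the highest level at 106.7 ± 10.6 CPM per kb of exon (SD, n = 3), above 96.8% of the 11227 tested genes with a known length, followed by Dnmt1 at 53.0 ± 5.61. Mbd2 came next at 19.3 ± 1.79 CPM per kb and then Uhrf2 at 10.5 ± 0.94. Dnmt3a at 5.65 ± 0.391 and Tet3 at 5.41 ± 0.707 could not be told apart beyond their spread. The same held for Tet2 at 2.21 ± 0.226 and Dnmt3b at 2.00 ± 0.28, while Tet1 was lowest on average at 1.31 ± 0.549, above 14.8% of genes, with its highest control library about level with the lowest of Dnmt3b. Per length, the maintenance pair Uhrf1 and Dnmt1 was higher than the de novo and TET genes in every control library. Behind the lowest levels were 126 to 250 counts per library for Dnmt3b and 158 to 537 for Tet1, compared to 7048 to 11771 for Uhrf1.

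**Figure D1:**
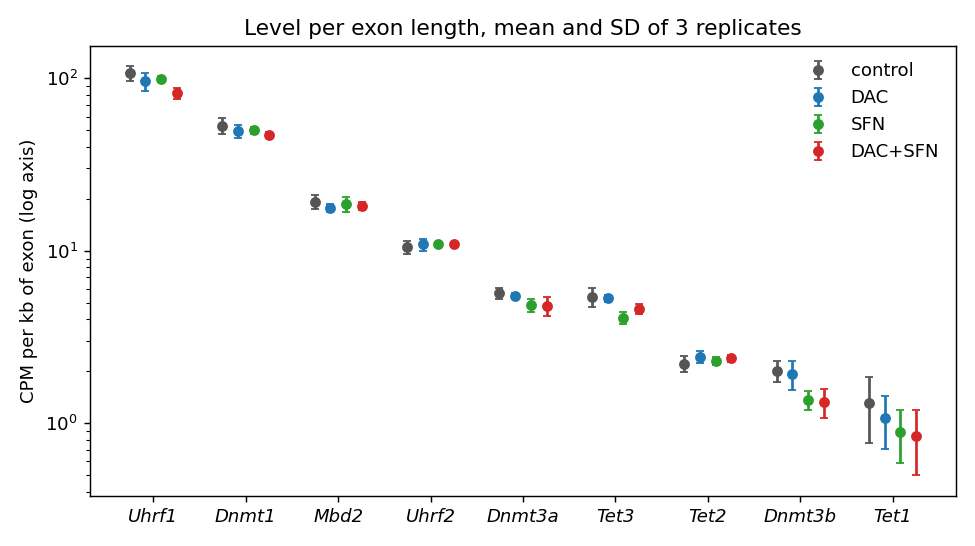
Level of each gene in CPM per kb of exon (vertical log axis), as the mean and SD of the 3 replicates of control, DAC, SFN and DAC+SFN. Uhrf1 and Dnmt1 stand above the other 7 genes in every group, and Tet1 and Dnmt3b are among the lowest.

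SFN single treatment was compared to control to ask how the machinery responded to SFN. Of the 9 genes, 4 fell and 0 rose, which were Dnmt3a, Dnmt3b, Tet1 and Tet3, the de novo methyltransferases and a pair of the TET enzymes, and 5.65% of all tested genes fell in this comparison. The maintenance genes Dnmt1 and Uhrf1 did not pass the test. Their 95% intervals, -0.203 to 0.0304 and -0.245 to 0.0418 on the log2 scale, leave room for a small fall. A gene is called changed when its p-value from edgeR's quasi-likelihood test, adjusted over all 11638 genes tested, is under 0.05, and no member also reached a fold change of 2 in any comparison. The median log2 fold change was -0.101 over the 9 genes and 0.004 over all genes. With 1 library left out, fewer of the 9 were called, namely 1 without control replicate 1 or SFN replicate 2 or 3, and 2 without control replicate 2 or 3 or SFN replicate 1. In bulk RNA, fewer cells of a type and less RNA per cell cannot be told apart. Without the replicate block, 0 of the 9 genes were called with SFN, and the 4 adjusted p-values lay between 0.107 for Tet3 and 0.534 for Tet1, with nearly the same fold changes.

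DAC single treatment was compared to control to ask whether a DNMT inhibitor altered the RNA of its own targets and their partners. None of the 9 genes passed the test (adjusted p between 0.466 and 0.914 in edgeR), compared to 0.18% of all genes called in either direction. At an unadjusted p under 0.05 there was 1 member, Uhrf1, and DESeq2 also called 0. The log2 fold change of Uhrf1 was -0.15 (95% interval -0.294 to -0.00736). For Dnmt1 the log2 fold change was -0.11 (95% interval -0.226 to 0.00814), for Mbd2 -0.11, for Tet1 -0.26 and for Tet2 0.14. When only control and DAC libraries entered the fit, Uhrf1 was called (adjusted p = 0.0193, against 0.0193 to 1 over 8 other settings). The median over the 9 genes was -0.0826 on the log2 scale.

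With DAC+SFN combination treatment 6 of the 9 genes fell compared to control and 0 rose, against 14.7% of all genes that fell. They were Dnmt1, Uhrf1, Dnmt3a, Dnmt3b, Tet1 and Tet3. Uhrf2, Tet2 and Mbd2 did not pass the test, with log2 fold changes of 0.07, 0.10 and -0.081. The median was -0.225 over the 9 genes and 0.00776 over all genes. Without the replicate block the call on Uhrf1 alone was left, 1 of the 9 (adjusted p = 0.0322), and the other 5 genes had adjusted p-values between 0.057 for Dnmt3b and 0.311 for Tet1. All 3 treatments are compared to the same control libraries.

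**Figure D2:**
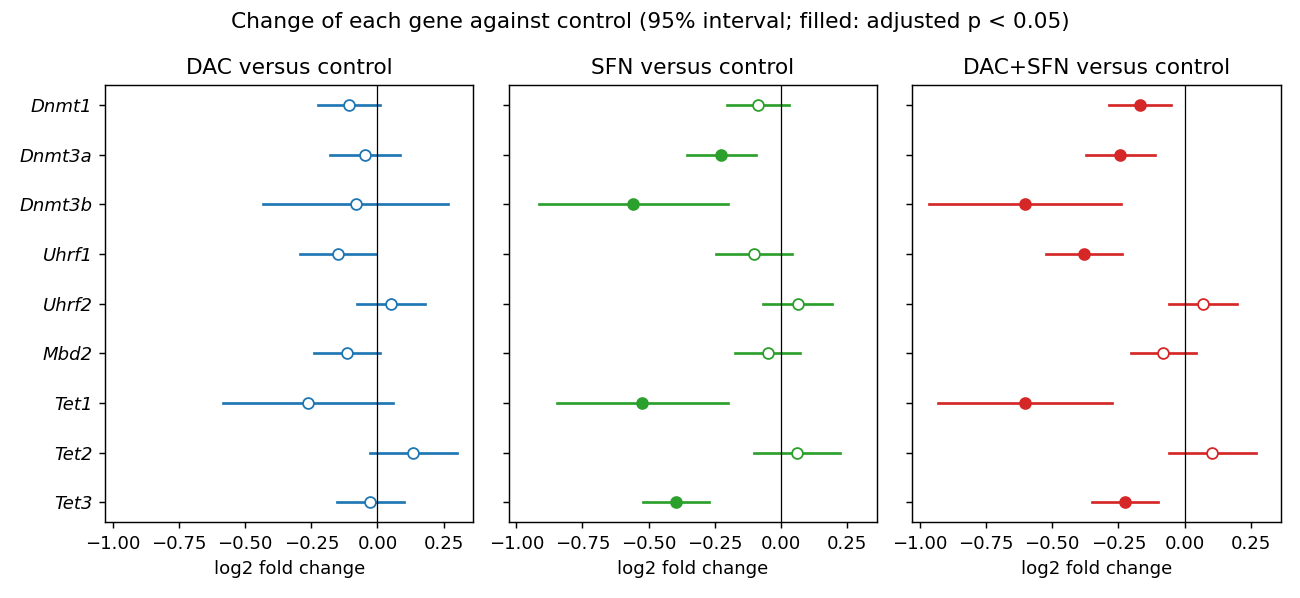
Log2 fold change of each gene against control (horizontal axis) with its 95% interval for DAC, SFN and DAC+SFN, with filled points at an adjusted p under 0.05. There are 0 filled points with DAC, 4 with SFN and 6 with DAC+SFN, all to the left of 0.

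Uhrf1, which brings DNMT1 to replicated DNA, was lowest with the combination. Its levels were 428.8, 506.4 and 428.4 CPM in control replicates 1, 2 and 3. DAC libraries had 375.7, 466.7 and 387.9 CPM, SFN libraries 404.8, 426.7 and 436.4, and combination libraries 320.8, 352.4 and 372.5. Each DAC+SFN library lay below every library of the other groups, while the control, DAC and SFN libraries overlapped. Uhrf1 fell by 23.2% with DAC+SFN (log2 fold change -0.38, SE 0.0673, adjusted p = 0.000748), and it was called in all 6 fits that left out 1 control or DAC+SFN library and in all 8 other settings. With SFN alone the log2 fold change was -0.10 (SE 0.067, adjusted p = 0.343).

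Dnmt1, the maintenance methyltransferase, moved less. It had 382.8, 436.1 and 354.6 CPM in the control libraries, 353.3, 397.1 and 337.1 in those of DAC, 375.5, 377.7 and 349.2 in those of SFN, and 355.3, 356.0 and 330.2 in those of DAC+SFN. The groups overlapped, since control replicate 3 was lower than 2 of the DAC+SFN libraries, and within each replicate number the DAC+SFN library was lower than control. Dnmt1 fell with DAC+SFN (log2 fold change -0.17, SE 0.0548, adjusted p = 0.0299). That call was lost without control replicate 1 (adjusted p = 0.056), control replicate 2 (0.175) or DAC+SFN replicate 2 (0.124), and when only control and DAC+SFN libraries were fitted (0.129, against 0.0177 to 0.219 over 8 other settings). With SFN alone its log2 fold change was -0.086 (adjusted p = 0.321). Uhrf2 ranged between 83.25 and 101.3 CPM over all 12 libraries, with every group overlapping every other.

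**Figure D3:**
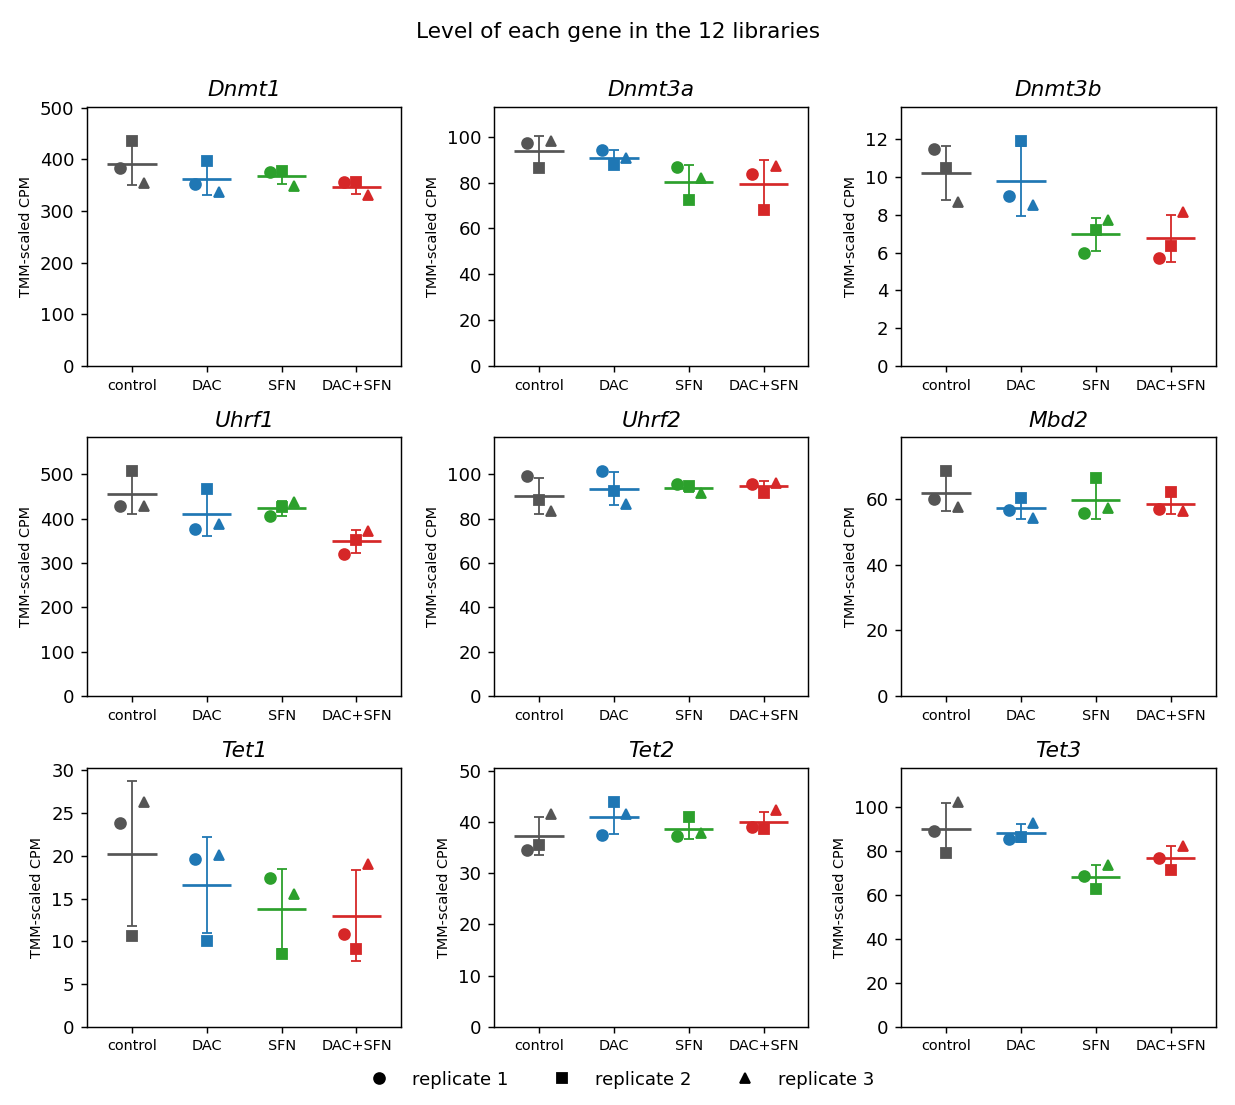
TMM-scaled CPM (vertical axis, from 0) of each of the 9 genes in the 12 libraries, where circles, squares and triangles are replicates 1, 2 and 3, horizontal bars the group means and vertical bars the SD. The 3 DAC+SFN points of Uhrf1 lie below all others, the SFN points of Tet3 lie below all control points, and replicate 2 of Tet1 is the lowest point in each group.

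Dnmt3a, a de novo methyltransferase, was called lower in both groups that received SFN. Its levels were 97.29, 86.56 and 98.3 CPM for control, 94.39, 87.79 and 90.73 for DAC, 86.72, 72.52 and 82.22 for SFN, and 83.81, 67.95 and 87.18 for DAC+SFN. Control and DAC covered nearly the same range, and the 2 groups with SFN overlapped control by 1 library each, since SFN replicate 1 and DAC+SFN replicate 3 were above control replicate 2. Dnmt3a fell by 14.5% with SFN (log2 fold change -0.23, SE 0.061, adjusted p = 0.0231) and fell by 15.5% with DAC+SFN (-0.24, SE 0.0613, adjusted p = 0.00773). The call with SFN was lost in each of the 6 fits that left out 1 control or SFN library (adjusted p between 0.0522 and 0.106), while the call with DAC+SFN remained in 6 of 6.

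Dnmt3b, the other de novo methyltransferase, had the larger fold change and far fewer counts. It had 11.5, 10.5 and 8.68 CPM for control, 8.984, 11.93 and 8.504 for DAC, 5.976, 7.188 and 7.728 for SFN, and 5.736, 6.369 and 8.172 for DAC+SFN. All SFN and all DAC+SFN libraries lay below all control libraries, and DAC overlapped control. Dnmt3b fell by 32.1% with SFN (log2 fold change -0.56, SE 0.167, adjusted p = 0.0371) and fell by 34.2% with DAC+SFN (-0.60, SE 0.17, adjusted p = 0.0144). The size differed between repeats of culture, with SFN minus control differences of -0.934, -0.541 and -0.166 (log2, prior count 2) in replicates 1, 2 and 3. The call with SFN was lost without control replicate 1 (adjusted p = 0.22) or 2 (0.0945) or SFN replicate 1 (0.16), 2 (0.139) or 3 (0.0518). With DAC+SFN it was lost without control replicate 1 (0.108) or DAC+SFN replicate 1 (0.0821) or 2 (0.0748).

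Tet3, a 5-methylcytosine dioxygenase, was lower in every SFN library than in any control or DAC library. Its levels were 89.01, 79.12 and 102.6 CPM for control, 85.58, 86.26 and 92.98 for DAC, 68.84, 62.7 and 73.56 for SFN, and 76.93, 71.45 and 82.51 for DAC+SFN. In each replicate number the DAC+SFN library lay between those of SFN and control. Tet3 fell by 24.1% with SFN (log2 fold change -0.40, SE 0.059, adjusted p = 0.000498), with differences of -0.37, -0.335 and -0.48 in replicates 1, 2 and 3, and was called in 6 of 6 fits without 1 library. With DAC+SFN it fell by 14.4% (-0.23, SE 0.0589, adjusted p = 0.00971). That call remained in 5 of 6 fits without 1 library and was lost, at the threshold, without control replicate 3 (adjusted p = 0.05).

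Tet1, the TET enzyme with the lowest level here, differed more between repeats of culture than between treatments. Control libraries had 23.87, 10.58 and 26.35 CPM, DAC libraries 19.58, 10.08 and 20.12, SFN libraries 17.41, 8.505 and 15.5, and DAC+SFN libraries 10.83, 9.147 and 19.05. Replicate 2 was lowest in all 4 groups, so the groups overlapped, and in each replicate number the SFN and DAC+SFN libraries were below control. Tet1 fell by 30.4% with SFN (log2 fold change -0.52, SE 0.151, adjusted p = 0.0317) and fell by 34.2% with DAC+SFN (-0.60, SE 0.154, adjusted p = 0.00827). The call with SFN was lost without control replicate 1 (adjusted p = 0.158) or 3 (0.0896) or SFN replicate 2 (0.0933) or 3 (0.181). With DAC+SFN the log2 fold change was -0.346 without DAC+SFN replicate 1, still called (0.0484).

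Tet2 and the methyl-CpG reader Mbd2 (chromosome 18, 70568189 to 70626131, plus strand) did not pass the test in any of the 8 comparisons. Tet2 had 34.64, 35.58 and 41.65 CPM in control and 38.97, 38.69 and 42.35 with DAC+SFN, with an adjusted p of 0.321. Mbd2 had 59.89, 68.36 and 57.42 CPM in control and 56.99, 61.97 and 56.36 with DAC+SFN, with an adjusted p of 0.307. The 95% intervals of these log2 differences, -0.0588 to 0.268 for Tet2 and -0.203 to 0.0419 for Mbd2, bound the changes that remain possible. Tet1 and Tet3 were thus called with SFN and with DAC+SFN and Tet2 was not, and the difference between these genes was not tested.

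SFN added to DAC was compared with DAC alone. Of the 9 genes 3 fell and 0 rose, which were Dnmt3a (log2 fold change -0.20, adjusted p = 0.0418), Uhrf1 (-0.23, adjusted p = 0.0316) and Tet3 (-0.20, adjusted p = 0.0339), against 6.60% of all genes that fell. For each of these genes all DAC+SFN libraries lay below all DAC libraries. Dnmt3b was at the threshold (-0.52, adjusted p = 0.0501), and Tet1 had a log2 fold change of -0.34 (adjusted p = 0.154). Each of the 3 calls was lost without DAC replicate 1 (adjusted p up to 0.094), DAC replicate 2 (up to 0.204), DAC+SFN replicate 1 (up to 0.124) or DAC+SFN replicate 2 (up to 0.16), and 5 genes were called without DAC+SFN replicate 3, where Dnmt3b (0.0078) and Tet1 (0.0382) joined them. Without the replicate block 0 of the 9 were called, with adjusted p-values of 0.255 for Uhrf1, 0.332 for Tet3 and 0.351 for Dnmt3a.

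DAC added to SFN was compared with SFN alone, and 0 of the 9 genes passed edgeR's test, against 1.61% of all genes called in either direction. At an unadjusted p under 0.05 there were 2 members, Uhrf1 and Tet3. Uhrf1 was close to the threshold (log2 fold change -0.28, SE 0.0672, adjusted p = 0.0522), and its DAC+SFN libraries lay below all SFN libraries with differences of -0.335, -0.276 and -0.229 in replicates 1, 2 and 3. DESeq2 called 1 member, which was Uhrf1 (adjusted p = 0.00991), and over 8 other settings its adjusted p ranged between 0.000672 and 0.528. Without DAC+SFN replicate 3 it was also called (adjusted p = 0.00949). The value for Tet3 was 0.17 (SE 0.0592, adjusted p = 0.145), higher with DAC+SFN than SFN in 3 of 3 replicate numbers. For Dnmt1 the difference was -0.082 (adjusted p = 0.471, 95% interval -0.199 to 0.0351).

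The interaction of DAC and SFN asks whether the combination departs from the sum of the single treatments on the log2 scale. None of the 9 genes passed the test in edgeR or DESeq2, and edgeR called 0% of all genes. At an unadjusted p under 0.05 there was 1 member, compared to 683 of 11638 genes. It was Tet3, with an interaction of 0.20 (95% interval 0.0204 to 0.377, adjusted p = 0.847). For Uhrf1 the interaction was -0.13 (95% interval -0.331 to 0.0742, adjusted p = 0.966), so these libraries do not show whether its level with the combination departs from the sum. If the labels are right, the SFN dose differs between SFN and DAC+SFN. The interaction, DAC+SFN against SFN and the averaged comparisons would then carry that dose difference too.

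Averaging each treatment over the presence of the other used all 12 libraries. With SFN averaged over DAC, 5 of the 9 genes fell, against 13.5% of all genes. These were Tet3 (log2 fold change -0.30, adjusted p = 0.000112), Dnmt3a (-0.21, adjusted p = 0.00214), Dnmt3b (-0.54, adjusted p = 0.00356), Tet1 (-0.43, adjusted p = 0.00807) and Uhrf1 (-0.17, adjusted p = 0.0167), while Dnmt1 had -0.073 (adjusted p = 0.172). The first 4 calls remained in 12 of 12 fits without 1 library, and that of Uhrf1 was lost without control replicate 2 (0.0526), DAC replicate 2 (0.0583) or SFN replicate 2 (0.0696). Without the replicate block 2 genes were called, Tet3 (0.0227) and Dnmt3b (0.0264), and Uhrf1 had an adjusted p of 0.14, Dnmt3a 0.0808 and Tet1 0.311.

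With DAC averaged over SFN, 1 of the 9 genes fell, against 2.15% of all genes. That gene was Uhrf1 (log2 fold change -0.21, SE 0.0475, adjusted p = 0.0199), with -0.263, -0.197 and -0.186 in replicates 1, 2 and 3, and Dnmt1 had -0.095 (adjusted p = 0.177). The call on Uhrf1 was lost without control replicate 1 (0.0651) or 2 (0.0709), DAC replicate 3 (0.0532), SFN replicate 1 (0.08) or 3 (0.0887), or DAC+SFN replicate 1 (0.0558) or 2 (0.0571), and without the replicate block (0.352), where 0 of the 9 genes were called.

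The replicate number carried a large part of the spread of these genes. It took 73.0% of the variance of log2 level for Mbd2, 70.3% for Tet1, 53.3% for Dnmt1 and 51.2% for Uhrf2, compared to 4.54% for Dnmt3b. The treatment group took 70.9% for Tet3, 67.5% for Dnmt3b, 65.1% for Uhrf1 and 50.7% for Dnmt3a. Library numbers in the labels follow the replicate number, so the order of the libraries and the repeat of culture cannot be told apart.

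Uhrf1 and Dnmt1 moved with the genes of DNA replication. A list of 20 S-phase genes, which holds none of the 9 members, had a mean log2 level, after the mean of each replicate number was removed, of 0.147, 0.214 and 0.0776 in control replicates 1, 2 and 3, and of -0.256, -0.241 and -0.114 with DAC+SFN. For Uhrf1 the same quantity was 0.173, 0.222 and 0.0796 in control and -0.245, -0.301 and -0.122 with DAC+SFN. Over the 12 libraries Pearson's r between that mean and the gene was 0.988 for Uhrf1 (Spearman's rho 0.986) and 0.872 for Dnmt1 (rho 0.839). Without the 2 libraries farthest from the median, DAC+SFN replicates 1 and 2, r was 0.982 for Uhrf1 and 0.894 for Dnmt1. For the other 7 genes r lay between -0.453 for Tet2 and 0.687 for Dnmt3a, with 0.679 for Dnmt3b, 0.595 for Tet1 and 0.275 for Tet3. Without those 2 libraries r was 0.467 for Dnmt3a, 0.422 for Dnmt3b and 0.352 for Tet1. These values describe 12 libraries of 4 treatment groups that share the treatments and their scaling. How many of all tested genes reach such an r was not tested, so the values do not show a link particular to replication. The genes named below as most like Dnmt1 are not on the S-phase list. Of the 20 S-phase genes 18 fell and 1 rose with DAC+SFN (median log2 fold change -0.335), where 14.7% of all genes fell and 17.0% rose. With SFN 3 fell and 1 rose (median -0.1), where 5.65% of all genes fell and 8.27% rose, and with DAC 0 were called (median -0.153), against 0.18% of all genes in either direction. The part of this in the change of Uhrf1 and Dnmt1 was not tested.

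**Figure D4:**
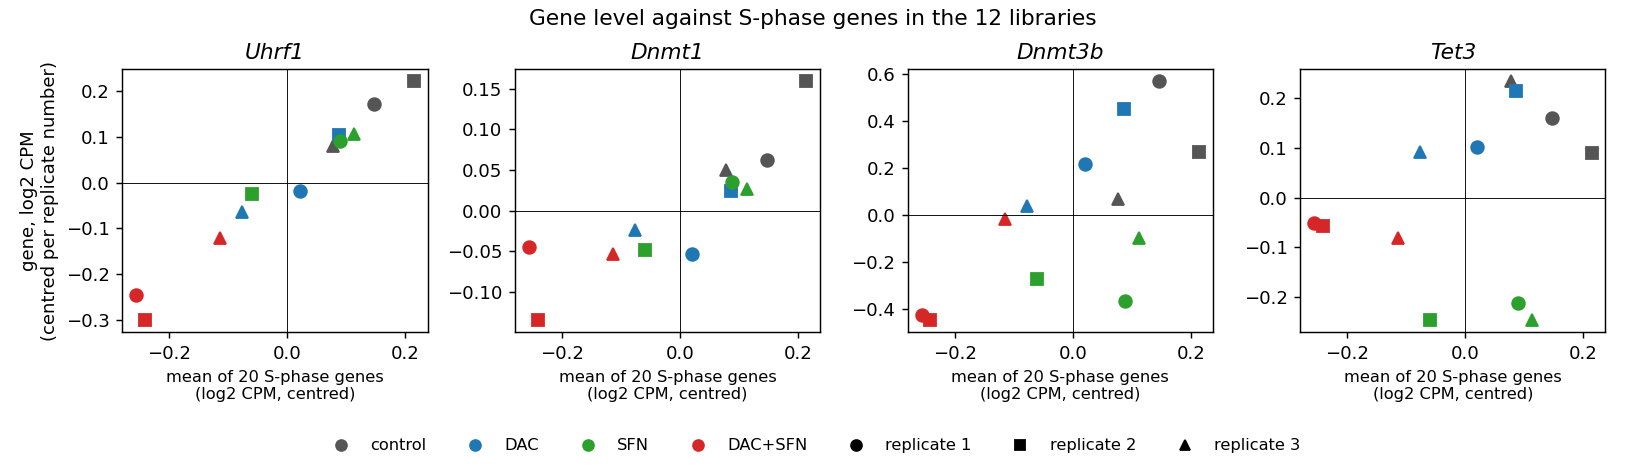
Log2 CPM of Uhrf1, Dnmt1, Dnmt3b and Tet3 (vertical axes) against the mean of 20 S-phase genes (horizontal axis), each with the mean of its replicate number removed, for the 12 libraries by group (colour) and replicate (shape). Uhrf1 follows the S-phase mean closely (r = 0.988), Dnmt1 less closely (0.872), and the SFN libraries of Tet3 are low at S-phase levels where control and DAC libraries of Tet3 are high (0.275).

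Among the members, the pairs with the highest correlation over the 12 libraries after the replicate mean was removed were Dnmt1 with Uhrf1 (r = 0.896), Dnmt3a with Dnmt3b (0.872) and Dnmt3a with Tet3 (0.829). Over all tested genes the patterns most like that of Uhrf1 were those of Elovl5 (r = 0.993), Hmgb1 (0.991) and Mcm6 (0.989), of which Mcm6 is a replicative helicase subunit on the S-phase list. For Dnmt1 they were Tyrp1 (0.976), Nup93 (0.974) and Kdelc1 (0.968), and for Dnmt3a Taf7 (0.974), Ppp1r15b (0.97) and Stard4 (0.962). Dnmt3b was most like Eya4 (0.965), Senp7 (0.964) and Eif5 (0.96), and Tet3 most like Tom1l2 (0.98), Ube2q1 (0.955) and Plcg1 (0.948). Tet1 was nearest to Foxred2 (0.953), Tet2 to Tert (0.942), Uhrf2 to Picalm (0.956) and Mbd2 to Rcor3 (0.936). These are descriptions over the same 12 libraries, and the highest of many correlations is high by choice.

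Related genes were followed with DAC+SFN against control, where 31.6% of all tested genes were called in either direction, 14.7% lower and 17.0% higher. Of 6 tested partners of maintenance methylation 3 fell and 0 rose (median log2 fold change -0.25), which were Lig1, the ligase of lagging strands (-0.45, adjusted p = 0.000348), Pcna, the sliding clamp (-0.43, adjusted p = 0.00041), and Hells, a chromatin remodeller needed for methylation (-0.36, adjusted p = 0.00914). Pcna went from 445.5 ± 14.5 CPM in control to 332.1 ± 33.4 with DAC+SFN and Lig1 from 185.9 ± 18.0 to 136.0 ± 2.95 (SD, n = 3). All 3 were also called without the replicate block, and the call on Hells was lost without DAC+SFN replicate 1 (adjusted p = 0.0669).

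In a list of 9 other methyl-CpG readers and MBD family genes, 2 rose and 1 fell with DAC+SFN (median 0.0356), close to the 17.0% and 14.7% of all genes. Zbtb38 (0.38, adjusted p = 0.00209) and Zbtb4 (0.61, adjusted p = 0.0309), zinc finger readers, rose, and Mbd4, which also removes thymine from G:T mismatches, fell (-0.50, adjusted p = 0.00333). Mbd4 went from 20.7 ± 1.83 to 14.7 ± 2.00 CPM and was called in all 6 fits without 1 library and in all 8 other settings. None of the readers rose in the fit with no replicate block (adjusted p = 0.0965 for Zbtb38 and 0.0888 for Zbtb4). Zbtb4 was also not called under the robust fit or without control replicate 2 (0.214) or DAC+SFN replicate 1 (0.0515) or 2 (0.18). Of 12 NuRD subunits that work with MBD2 or MBD3, 3 fell and 0 rose (median -0.0704), against 14.7% and 17.0% of all genes. Those that fell were the histone deacetylase Hdac2 (-0.21, adjusted p = 0.0107), Mta3 (-0.21, adjusted p = 0.0288) and the remodeller Chd3 (-0.21, adjusted p = 0.0293). In the fit with no replicate block 0 of the 12 were called, as when only control and DAC+SFN libraries were fitted, and each call was lost without control replicate 1 (adjusted p up to 0.135) or DAC+SFN replicate 1 (up to 0.149), that on Mta3 also without control replicate 2 (0.108) and that on Chd3 without control replicate 3 (0.131). Trdmt1, the tRNA methyltransferase of the DNMT family, had a log2 fold change of -0.11 (adjusted p = 0.372), Dnmt3l had at most 2 counts per library, and Dnmt3c was not analysed here.

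Of 8 tested genes of demethylation and base excision 4 rose and 1 fell with DAC+SFN (median 0.202), against 17.0% and 14.7% of all genes. Gadd45b (1.14, adjusted p = 0.00102), Gadd45a (0.50, adjusted p = 0.0111) and Gadd45g (1.08, adjusted p = 0.0131), stress-induced genes that have been linked to active demethylation, rose. Gadd45b went from 2.39 ± 0.879 to 5.18 ± 1.54 CPM and Gadd45g from 2.56 ± 1.23 to 5.12 ± 1.43, with 38 to 138 counts per library behind Gadd45b in these groups and 25 to 140 behind Gadd45g. Ogt, which binds TET proteins, also rose (0.22, adjusted p = 0.0346), and the endonuclease Apex1 fell (-0.23, adjusted p = 0.0433). With no replicate block in the fit, 0 of the 8 genes were called in either direction (adjusted p = 0.0989 for Gadd45b). Gadd45b was called in all 6 fits without 1 library. Gadd45a lost the call without control replicate 2 or DAC+SFN replicate 1 or 2 (adjusted p up to 0.0989), and Gadd45g without control replicate 1 or DAC+SFN replicate 1 or 2 (up to 0.0777). Ogt lost it without control replicate 2 or DAC+SFN replicate 2 or 3 (up to 0.252), and Apex1 without control or DAC+SFN replicate 2 (0.267 and 0.225). Ogt and Apex1 are named, as are Idh3a, Idh3b and Ccne1 below, because they complete a count, after their values were seen. Tdg, the glycosylase that acts after TET, had 1 to 6 counts per library, and reads that it shares with its pseudogene copies would not have been counted.

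Enzymes that supply S-adenosylmethionine to the DNMT proteins and 2-oxoglutarate to the TET proteins were called in both directions. Of 10 tested, 2 fell and 3 rose with DAC+SFN (median 0.0604), not far from the 14.7% and 17.0% of all genes. Idh1, the cytosolic isocitrate dehydrogenase, fell (-0.91, SE 0.108, adjusted p = 3.4e-05), from 142.3 ± 19.2 to 77.5 ± 24.2 CPM, and so did the mitochondrial Idh2 (-0.68, SE 0.0797, adjusted p = 3.33e-05), from 332.6 ± 6.62 to 209.6 ± 27.8 CPM. Both also fell with SFN alone (Idh1 -0.75, adjusted p = 0.000346, and Idh2 -0.43, adjusted p = 0.0022). Mat2a, which makes S-adenosylmethionine, rose (0.19, adjusted p = 0.0313), as did the NAD-dependent subunits Idh3a (0.19, adjusted p = 0.0421) and Idh3b (0.17, adjusted p = 0.0319). When the replicate block was left out Idh1 and Idh2 were called with DAC+SFN but not with SFN alone (adjusted p = 0.208 and 0.172), and none of the 3 genes that rose was called. These 3 also each lost the call without control replicate 1 or 3 or DAC+SFN replicate 1, with adjusted p up to 0.13 for Mat2a, 0.201 for Idh3a and 0.224 for Idh3b, and the same held for Mat2a and Idh3a without DAC+SFN replicate 3 and for Idh3b without DAC+SFN replicate 2.

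Among S-phase genes the helicase factor Cdc45 (-0.55, adjusted p = 6.48e-05), Mcm7 (-0.49, adjusted p = 0.000132) and the chromatin assembly subunit Chaf1b (-0.54, adjusted p = 0.000239) fell, and the cyclin Ccne1 rose (0.18, adjusted p = 0.0479). The 3 falls were called in all 6 fits without 1 library and in all 8 other settings, whereas Ccne1 was called in 1 of 6 (the fit without DAC+SFN replicate 1) and 2 of 8. With the replicate block left out, 11 of the 20 S-phase genes fell in the place of 18, and without 1 library between 14 and 18.

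Germline genes known to be silenced by promoter methylation gave little signal. Of 13 such genes 1, Ddx4, passed the filter, at 1.16 ± 0.47 CPM in control and 1.36 ± 0.315 with DAC+SFN (log2 fold change 0.24, adjusted p = 0.557). The sign of that value turned without control replicate 2 (-0.131). The other 12 had at most 25 counts in a library, the most in Rhox5 (6 to 25 counts), and the summed level of the list was between 1.29 and 2.31 CPM in control, 1.41 and 1.98 with DAC and 1.55 and 2.63 with DAC+SFN. Mael, Asz1, Stk31 and Tex101 had no count in any library.

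**Figure D5:**
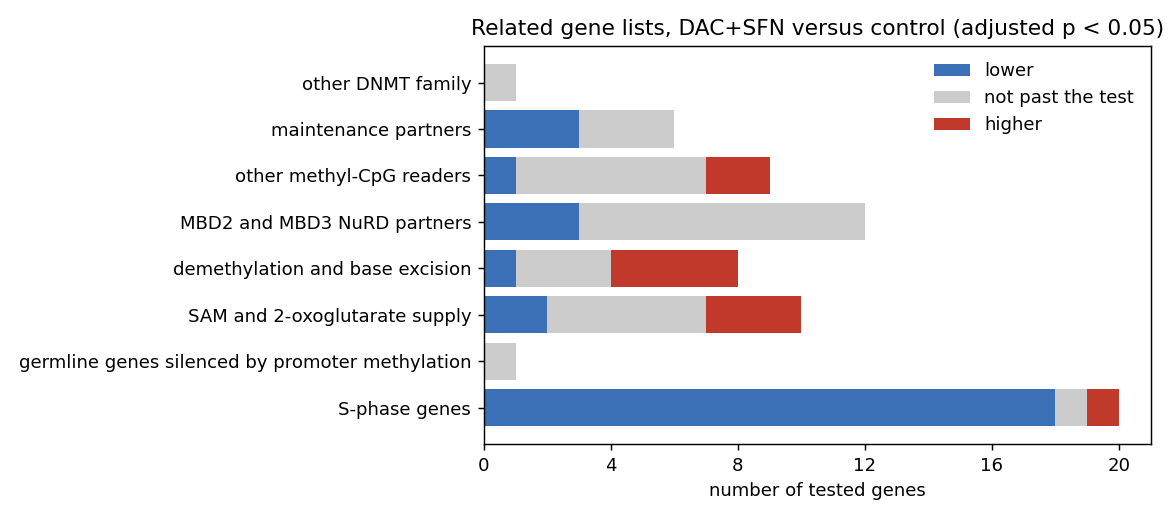
Number of tested genes (horizontal axis) of 8 related lists that were lower (blue), higher (red) or not past the test (grey) with DAC+SFN against control at an adjusted p under 0.05. The S-phase list has 18 of 20 genes lower, the maintenance partners 3 of 6, and the demethylation list 4 of 8 higher.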

How the data were processed

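RNA from 12 samples of B16F10 cells (3 replicates of control, DAC, SFN and DAC+SFN) was sequenced as 75-base single-end reads from stranded mRNA libraries. The authors deposited read counts per gene symbol, as whole numbers without normalization. Per the labels and the methods of the study, reads were checked with FastQC 0.11.7, trimmed with Trimmomatic 0.38, aligned to mm10 with TopHat2 2.1.1 and counted with HTSeq in Blast2GO, and reads aligned to a single place were kept. The annotation and strand setting of the counting are not given in the sources used here.

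Groups and replicate numbers were taken from the labels. The filter kept 11638 of 24421 genes, those reaching 1 CPM in 3 or more libraries. They were scaled by TMM and tested by edgeR 4.0.16 under R 4.3.3 (glmQLFit with the legacy setting, then glmQLFTest), with all 12 libraries in 1 model, the replicate number as the block, since the study corrects for a batch that it does not name, and two-sided p-values adjusted by Benjamini-Hochberg over all 11638 genes. Library totals of 15880957 to 27291436 counts set the precision, and SE was computed as the size of the log2 fold change over the root of F. Same-numbered samples deviated together, with correlations of 0.27 to 0.732 over 18 pairs, and the numbers are those of the labels. CPM values are TMM-scaled, log2 levels of single libraries carry a prior count of 2, and levels per kb use exon bases of GENCODE M21. Simulated counts of the same 12 libraries were used to test the fits.

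All 9 genes are named. Of each related list the called genes with the 3 smallest adjusted p-values with DAC+SFN are named, and for pattern likeness the 3 genes with the highest r. The genes, lists and tests were chosen with earlier results of these data known. Alternatives were no replicate block, DESeq2 1.42.0 size factors or Wald test, a filter of 10 counts in every library or none, the edgeR version 4 fit, a robust fit, only the groups compared, and libraries left out. Protein sequences were not used here. Figures were drawn with matplotlib 3.10.9.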

Additional observations from a re-analysis of the deposited data

How the results depend on the processing

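The number of the 9 genes called depended most on the replicate block. Without the replicate block it went from 4 to 0 for SFN against control, from 6 to 1 for DAC+SFN against control, from 3 to 0 for DAC+SFN against DAC, from 5 to 2 for SFN averaged over DAC and from 1 to 0 for DAC averaged over SFN, and calls over all genes in the first went from 1619 to 23. The blocked and unblocked fits gave 0 for the other 3 comparisons. DAC+SFN against SFN went from 0 to 1 gene, Uhrf1, with the DESeq2 Wald test, with no filter on low counts, with the edgeR version 4 fit, with the robust fit and with only the groups compared. With only the groups compared, DAC against control also went from 0 to 1, which was Uhrf1, and DAC+SFN against DAC from 3 to 0. With 1 library left out the counts were 1 to 2 for SFN against control, 4 to 6 for DAC+SFN against control, 0 to 5 for DAC+SFN against DAC, 0 to 1 for DAC+SFN against SFN, 4 to 5 for SFN averaged over DAC and 0 to 1 for DAC averaged over SFN. With the 4 libraries of 1 replicate number left out, an alternative chosen after seeing the data, they were 1 to 3, 1 to 6, 0 to 4, 0 to 1, 3 to 5 and 0 to 1 in the same order, and 0 in every fit of both kinds for DAC against control and the interaction. The low of 1 for DAC+SFN against control came without replicate 1, where Uhrf1 remained. Of the log2 fold changes of the 9 genes that the report gives, the others not being refitted, 1 changed sign over these settings, that of Uhrf2 with DAC+SFN, between -0.0105 without replicate 3 and 0.133 without replicate 1, and 588 of the others kept both direction and side of the threshold, 90 lost a call and 17 gained 1. For related genes 387 such values kept both, 102 lost a call, 2 gained 1 and 2 changed sign, both of Ddx4, DAC+SFN versus control (-0.131 without control replicate 2 and -0.137 without replicate 2, with up to 0.583 without replicate 3). The cause of these differences was not tested. Counts of 126 to 250 reads for Dnmt3b and 158 to 537 for Tet1 limit what can be said of these genes, and the groups of 3 libraries limit all.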
